A study of Rattus norvegicus with 9 samples.

Results

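The genes described here are the alpha subunits of the hypoxia-inducible factors (HIF), the prolyl hydroxylases that act on them, and 5 of their best known target genes, measured on microarrays of rat kidney. They were chosen by name as Hif1a, Epas1, Egln1, Egln2, Egln3, Vegfa, Bnip3, Adm, Slc2a1 and Ddit4, and every gene probe of the array carrying one of these names was taken. This gave 14 probes of 10 genes, out of 30367 gene probes with 26115 gene names. Vegfa had 4 probes, Ddit4 had 2 and the other 8 genes had 1 each.

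The arrays compared 5 kidneys called NP with 4 kidneys called MSC, the study having discarded 1 further MSC sample for poor quality after hybridization. All 9 came from a model of organ donation after circulatory death, in which an artery of an anaesthetised rat was clamped to give 20 min of warm ischaemia before the kidney was removed. The labels name the abdominal aorta as the clamped vessel, and the study's methods name the renal artery. Donors were Fisher F344 rats, an inbred strain, per the study's methods, and their age was not given in the sources used here. NP kidneys were not perfused according to their treatment label and the series design, which place them straight into a preservative after the warm ischaemia, although their titles name a 4 h perfusion at 4 °C with Belzer solution (BS), the cold organ preservation fluid. MSC kidneys were perfused for 4 h at 4 °C with BS holding 3000000 mesenchymal stromal cells (MSC), which came from Sprague Dawley rats carrying an enhanced green fluorescent protein (EGFP) transgene. No array of a kidney perfused with BS alone was analysed here, so cold perfusion and the added cells cannot be told apart in any difference between the groups. Total RNA of whole kidney was labelled with Cy3, and each array gave 1 colour.

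HIF is a transcription factor made of an alpha subunit, HIF-1α from Hif1a or HIF-2α from Epas1, and a stable beta partner. When oxygen is present, the prolyl hydroxylases made from Egln1, Egln2 and Egln3 mark the alpha subunit, which the von Hippel-Lindau protein then sends for destruction. When oxygen falls, this marking slows and HIF switches on genes for glucose uptake, glycolysis, blood vessel growth and cell survival. In the kidney, HIF-1α is known mainly from tubular cells, and HIF-2α from endothelial and interstitial cells, where it drives erythropoietin. Because the alpha subunits are governed largely as proteins, the mRNA of the target genes is the usual readout of the pathway on an array.

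None of the 14 probes differed between MSC and NP kidneys after adjustment over all probes (0 of 14 called by limma at a false discovery rate, FDR, under 0.05 with a fold change over 1.5). The same held for the whole array, where 0 of 15628 tested probes were called (0%). Ddit4 came nearest. Its brighter probe was 1.57 times as bright in NP as in MSC kidneys, with an unadjusted p of 0.00967 and an FDR of 0.332 by limma. Epas1 and the Vegfa probes A_64_P099891 and A_64_P099893 had a wide spread among NP kidneys, which spanned 8.29-fold for Epas1. Hif1a, the 3 hydroxylases, Bnip3 and Slc2a1 had log2 fold changes between 0.03 and 0.11.

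Levels below are log2 intensities after cyclic loess normalization between arrays, where a difference of 1 is a doubling, and fold changes are MSC minus NP on that scale. Per array, gene spots had median raw intensities of 577 to 917, against medians of 217 to 237 for the negative control spots, and 65.6 to 74.3% of gene spots were well above background. The arrays lay on 2 slides. Slide 1 held NP 1, NP 2, NP 3, MSC 1 and MSC 2, and slide 2 held NP 4, NP 5, MSC 3 and MSC 4. All spots of the 14 probes were well above background on all 9 arrays and none was saturated, so each value below is a measured level and not a bound. All 14 also passed the filter on low values. Kidney identity was plain, with all 7 proximal tubule markers looked for above that filter, and the scores of fat markers, 5 of 8 measured, ran from −1.30 to 0.22 in NP and from −1.19 to 2.32 in MSC kidneys (mean log2 deviation from the 9-array mean). All 5 fat markers had positive log2 fold changes, 2 of them at an unadjusted p under 0.05. Scores of the red cell list, 3 of 6 markers measured, ran from 0.16 to 0.87 in NP and from −2.15 to 0.44 in MSC kidneys, and 2 of the 3 were lower in MSC kidneys at an unadjusted p under 0.05. A kidney with fewer cells of a type and one with less RNA per cell cannot be told apart in such bulk samples.

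**Figure D1:**
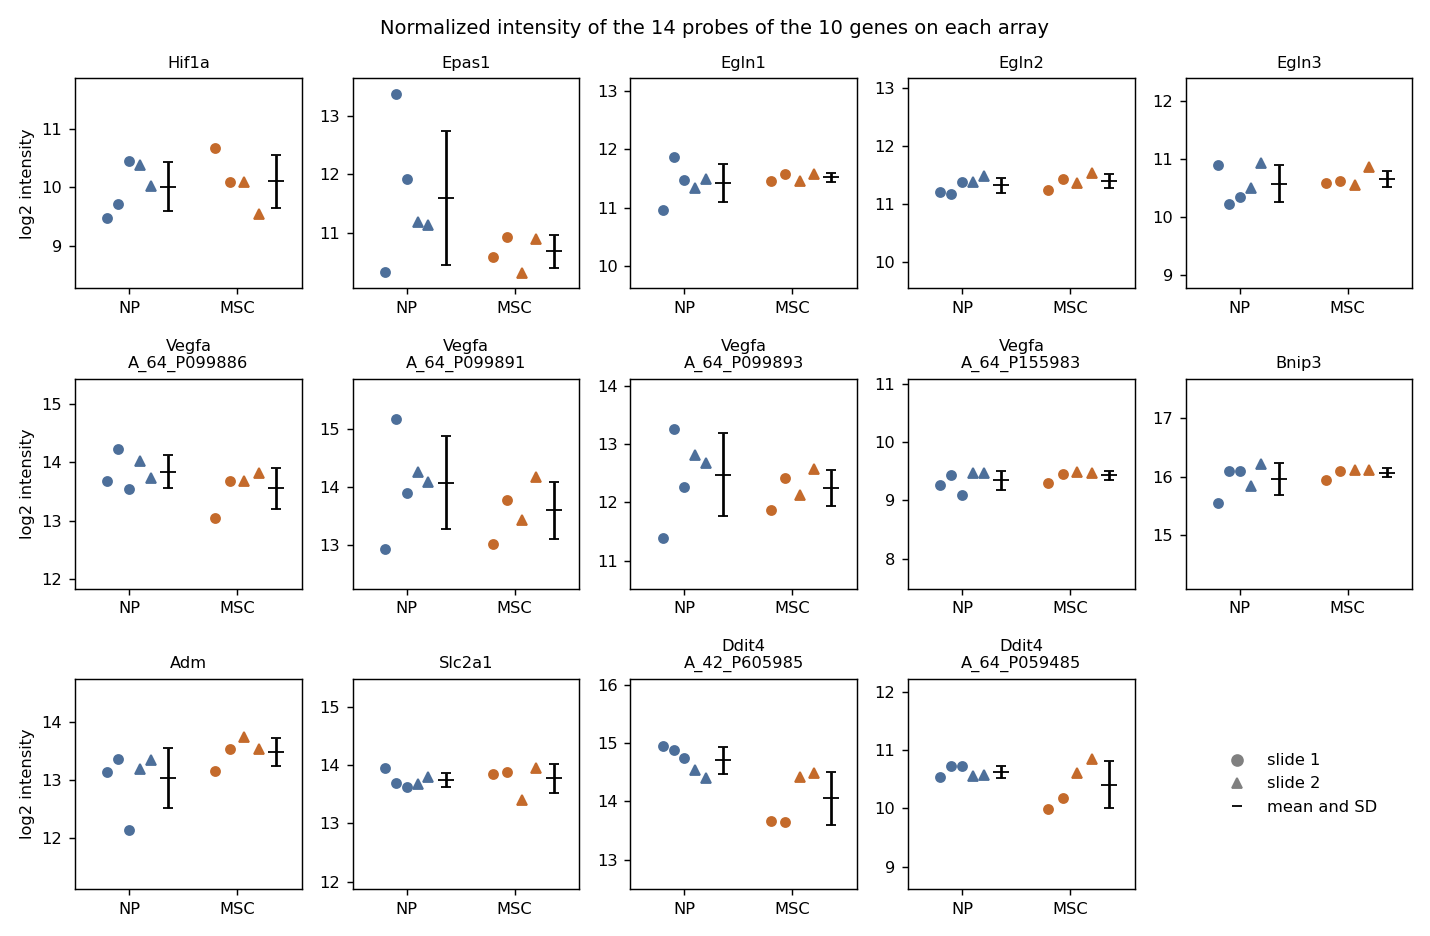
Log2 normalized intensity (vertical axes, all spanning the same range) of the 14 probes on the 5 NP (blue) and 4 MSC (orange) arrays; circles are slide 1, triangles slide 2, and the bar is the mean with its SD. Epas1 runs from 10.33 to 13.38 among NP arrays, and the brighter Ddit4 probe, A_42_P605985, is low only on the MSC arrays of slide 1.

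HIF acts at a short DNA element whose core is ACGTG or GCGTG, and the stretch just before the start of each gene was searched for these letters on both strands, overlapping matches counted separately. RefSeq promoter windows of 250 bases before the start (assembly GRCr8) were found for all 10 genes, with 2 windows for Vegfa. The core was present in 5 of these 11 windows, those of Hif1a, Egln1, Bnip3, Slc2a1 and Ddit4, against 36.7% of 33469 windows of the same length. Slc2a1 and Bnip3 held 4 matches each and Hif1a 3, where 6.21% of all windows held 3 or more. Ddit4 held 2, where 16.0% of all windows held 2 or more, and Egln1 held 1. The windows of these 3 target genes are shown because they hold the letters HIF is known to read. Matches are in capitals, CACGT and CACGC being the same cores on the other strand, and each window is read 5′ to 3′ on the strand of its gene:

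Ddit4, chr20:28437038-28437287, minus strand: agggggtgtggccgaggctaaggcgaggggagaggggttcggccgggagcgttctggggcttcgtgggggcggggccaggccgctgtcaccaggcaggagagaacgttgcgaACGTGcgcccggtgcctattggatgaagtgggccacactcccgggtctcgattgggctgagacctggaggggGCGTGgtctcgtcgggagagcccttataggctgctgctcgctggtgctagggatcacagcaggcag

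Bnip3, chr1:203154963-203155212, minus strand: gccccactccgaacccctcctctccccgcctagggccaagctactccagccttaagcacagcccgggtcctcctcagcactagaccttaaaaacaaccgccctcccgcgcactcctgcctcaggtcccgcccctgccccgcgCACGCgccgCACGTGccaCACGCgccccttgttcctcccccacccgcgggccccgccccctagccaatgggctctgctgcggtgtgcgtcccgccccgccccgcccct

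Slc2a1, chr5:138002272-138002521, plus strand: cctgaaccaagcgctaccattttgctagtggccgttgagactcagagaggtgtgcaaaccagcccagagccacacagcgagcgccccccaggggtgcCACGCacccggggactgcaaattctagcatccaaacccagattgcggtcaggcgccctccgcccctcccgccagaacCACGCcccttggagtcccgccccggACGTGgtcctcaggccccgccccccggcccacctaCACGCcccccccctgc

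In Ddit4 the cores began 138 and 66 bases before the start, and in Bnip3 all 4 lay between 108 and 90 bases before it, one on each strand overlapping in CACGTG. In Slc2a1 they were spread from 153 to 16 bases before the start. No match was found in the windows of Epas1, Egln2, Egln3, Vegfa and Adm, which says only that these letters are not in those 250 bases.

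Hif1a was read by a probe that ends on the stop codon of the gene. It lies at chr6:96462636-96462695 on the plus strand (rn4, the build named in the array files), and the stop codon is in capitals:

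Hif1a probe A_64_P081874: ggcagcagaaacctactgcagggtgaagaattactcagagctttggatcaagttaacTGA

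Its level was 9.47, 9.72, 10.46, 10.38 and 10.02 in NP kidneys 1 to 5 and 10.67, 10.09, 10.10 and 9.55 in MSC kidneys 1 to 4. The groups overlapped nearly in full, with means of 10.01 ± 0.42 (SD, n = 5) and 10.10 ± 0.46 (SD, n = 4). The log2 fold change was 0.09 with an SE of 0.25 (limma FDR 0.911), and its 95% interval ran from −0.47 to 0.66. The spread among MSC kidneys was wide for this array, with 97.3% of tested probes having a smaller SD in that group. On slide 1 the difference was 0.50 and on slide 2 it was −0.38, and this change between the slides had an unadjusted p of 0.111 and an FDR of 1.00 in the limma interaction of group and slide.

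Epas1, the gene of HIF-2α, had its probe inside the coding sequence at chr6:10295169-10295420 on the plus strand (rn4). Its level in the NP kidneys was 10.33, 13.38, 11.92, 11.18 and 11.13, and in the MSC kidneys it was 10.58, 10.92, 10.31 and 10.90. NP 2 was the highest of the 9 by more than 1 log2 unit, and NP 1 was as low as the MSC kidneys, so the groups overlapped. The means were 11.59 ± 1.15 (SD, n = 5) and 10.68 ± 0.29 (SD, n = 4). The log2 fold change was −0.91 with an SE of 0.50 (limma p 0.102, FDR 0.509), and the exact permutation test of the group means gave a two-sided p of 0.167. The 95% interval, from −2.03 to 0.22, held 0.244 of the NP level as well as no change. The SD among NP kidneys exceeded that of 99.6% of tested probes. Without NP 2 the log2 fold change became −0.46 (p 0.154), and without NP 1 it became −1.23 (p 0.0221, limma FDR 0.239).

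The genes whose levels ran most like Epas1 over the 9 arrays were Pinx1, Bend3, Sept11 and Slmap, with Pearson's r of 0.996, 0.996, 0.995 and 0.994, and the unnamed probe A_64_P065873 with 0.994. These 9 points include NP 2 and NP 3, the arrays farthest from the median of Epas1, and without them r stayed between 0.948 and 0.991. Scores of 3 lists of vessel and interstitial markers were also highest in NP 2, and all 3 were lowest in NP 1, where Epas1 was 10.33 against its lowest level of 10.31 in MSC 3. The mean log2 deviation of the interstitial and stromal list was 0.78 in NP 2 and −0.90 in NP 1, with 5 of 6 markers measured. The smooth muscle list, 4 of 5 markers measured, was 0.84 in NP 2 and −0.40 in NP 1. The endothelial list, all 8 markers measured, was 0.33 in NP 2 and −0.42 in NP 1. Their part in the level of Epas1 was not tested. For Hif1a the most alike genes were others, Cul1 (r of 0.974), Cfl2 (0.967), Actr2 (0.965), Akr1e2 (0.953) and Nap1l1 (0.952), and Hif1a and Epas1 themselves had an r of −0.06.

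None of the 3 prolyl hydroxylases passed the test. Egln1, the main oxygen sensor of the pathway, had levels of 10.96, 11.87, 11.48, 11.34 and 11.49 in NP kidneys and 11.45, 11.58, 11.45 and 11.58 in MSC kidneys, all 4 of which lay inside the NP range. Its log2 fold change was 0.09 with an SE of 0.15 (limma FDR 0.854). Egln2 read 11.20, 11.18, 11.39, 11.38 and 11.48 in NP kidneys against 11.25, 11.44, 11.36 and 11.54 in MSC kidneys. The groups overlapped, with MSC 4 highest of the 9. Its interval was the narrowest of the 14, and the change of 0.07 was bounded between −0.14 and 0.28. Egln3, itself a HIF target in many cells, read 10.89, 10.23, 10.34, 10.49 and 10.93 against 10.59, 10.61, 10.56 and 10.86. It differed by 0.08 (limma FDR 0.875, interval −0.27 to 0.43), and its MSC values lay within the NP range. As folds, these intervals ran from 0.838 to 1.35 for Egln1, 0.908 to 1.21 for Egln2 and 0.8294 to 1.346 for Egln3.

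Vegfa encodes the vascular endothelial growth factor VEGF-A and was read at 4 places. A_64_P099893 and A_64_P099891 lie in the coding part shared by the splice forms (chr9:10527602-10527661 and chr9:10528551-10528610, plus strand, rn4), A_64_P155983 in the segment encoding the heparin-binding region that only the longer splice forms carry (chr9:10531972-10532031), and A_64_P099886 near the 3′ end of the transcript (chr9:10535933-10535992). The sequences of a shared and of the heparin-binding probe are shown because their profiles over the arrays were not alike:

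Vegfa shared coding probe A_64_P099891: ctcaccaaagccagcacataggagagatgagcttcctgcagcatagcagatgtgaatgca

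Vegfa heparin-binding segment probe A_64_P155983: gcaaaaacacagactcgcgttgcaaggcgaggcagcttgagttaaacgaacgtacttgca

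The shared probe A_64_P099891 read 12.94, 15.17, 13.89, 14.26 and 14.08 in NP kidneys and 13.03, 13.77, 13.42 and 14.17 in MSC kidneys. Its highest value was again NP 2 and its lowest NP 1, a span of 4.69-fold, and the log2 fold change was −0.47 with an SE of 0.39 (limma FDR 0.654). The other shared probe, A_64_P099893, read 11.38, 13.25, 12.26, 12.82 and 12.67 against 11.86, 12.41, 12.13 and 12.57. The same kidneys stood at its ends, and it differed by −0.23 (SE 0.33, limma FDR 0.809). The 3′ end probe read 13.69, 14.23, 13.54, 14.03 and 13.73 against 13.05, 13.68, 13.68 and 13.83, a change of −0.29 (SE 0.18, limma FDR 0.567). The heparin-binding probe read 9.27, 9.43, 9.09, 9.46 and 9.47 against 9.30, 9.45, 9.48 and 9.47, a change of 0.08 (SE 0.10, limma FDR 0.766). It was the dimmest Vegfa probe, with raw intensities down to 483, and its change was 0.12 with normexp background correction and 0.18 with the processed signal scaled to its 75th percentile.

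Thus 3 of the 4 Vegfa probes had negative and 1 had a positive log2 fold change, none past an unadjusted p of 0.05. The values of both shared probes turned on NP 1 and NP 2. Without NP 1, A_64_P099891 had −0.75 (p 0.0374, limma FDR 0.277) and A_64_P099893 −0.51 (p 0.0455, limma FDR 0.295), and without NP 2 the differences shrank to −0.20 and −0.04. The 3′ end probe moved to −0.11 without MSC 1 and to −0.19 without NP 2, and the heparin-binding probe to 0.02 without NP 3. A_64_P099891 ran with Epas1 over the 9 arrays with an r of 0.853, a rank of 1310 among 13765 genes, and with an r of 0.872 without NP 2 and NP 3.

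**Figure D2:**
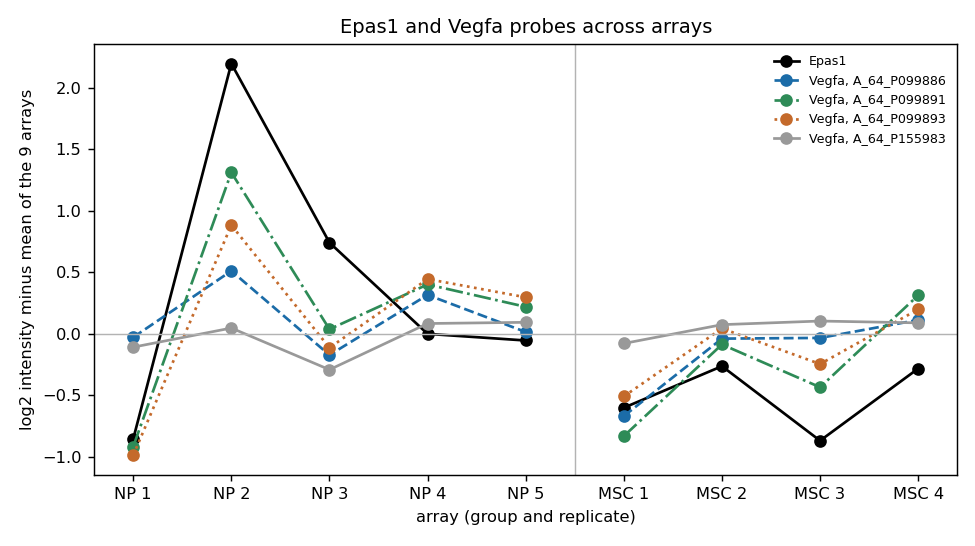
Log2 intensity of the Epas1 probe and the 4 Vegfa probes on each array, each minus its mean over the 9 arrays (vertical axis), with the 5 NP arrays to the left of the line and the 4 MSC arrays to the right. Epas1 and the shared Vegfa probes are highest in NP 2 and low in NP 1, whereas the heparin-binding probe A_64_P155983 moves little.

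Adm encodes adrenomedullin, a secreted peptide that widens blood vessels, and was the member with the highest positive log2 fold change. Its level was 13.14, 13.35, 12.13, 13.19 and 13.35 in NP kidneys and 13.15, 13.53, 13.73 and 13.52 in MSC kidneys. NP 3 stood below all others, and MSC 1 lay within the NP range while the other MSC kidneys lay above it. The log2 fold change was 0.45 with an SE of 0.24 (limma p 0.0923, FDR 0.497), the 95% interval ran from −0.09 to 0.99, and the exact permutation p was 0.103. Without NP 3 the change was 0.23 (p 0.109). The list of immediate early and stress response genes, all 10 of which were measured, also had its lowest score in NP 3, at −1.01 against −0.64 to 0.74 on the other arrays, and its part was not tested. The difference was 0.47 on slide 1 and 0.36 on slide 2.

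Slc2a1, the glucose transporter GLUT1, read 13.94, 13.70, 13.62, 13.68 and 13.79 in NP kidneys and 13.85, 13.89, 13.40 and 13.95 in MSC kidneys. The MSC kidneys took the highest and the lowest place of the 9, and the log2 fold change was 0.03 with an SE of 0.12 (limma FDR 0.953), its interval −0.25 to 0.30 corresponding to 0.842-fold to 1.23-fold. Bnip3, a mitochondrial protein that promotes mitophagy under low oxygen, read 15.54, 16.10, 16.09, 15.84 and 16.22 against 15.95, 16.09, 16.11 and 16.11. All MSC values lay within the NP range, and the change was 0.11 with an SE of 0.13 (limma FDR 0.775). Leaving out NP 1, the lowest kidney, brought it to 0.00364, and leaving out NP 5 to 0.17.

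Ddit4, also known as REDD1, restrains the growth regulator mTORC1 under low oxygen and other stresses. Its brighter probe, A_42_P605985, lies near the 3′ end of the transcript (chr20:27252567-27252626, minus strand, rn4) and was spotted 10 times on each array. Its level was 14.95, 14.88, 14.75, 14.54 and 14.40 in NP kidneys and 13.66, 13.65, 14.41 and 14.48 in MSC kidneys. MSC 1 and MSC 2 stood clearly below all NP kidneys, whereas MSC 3 and MSC 4 lay inside the NP range, so the groups overlapped. The log2 fold change was −0.65 with an SE of 0.21, the 95% interval ran from −1.11 to −0.20, and the exact permutation p was 0.0317 (adjusted over all probes 0.379), where 0.00794 is the smallest p that 5 against 4 arrays allow. By limma's p it ranked 438 among the 15628 probes.

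The difference was seen on slide 1, in values of 2 or 3 kidneys a group. On slide 1 it was −1.21, with both MSC kidneys below all 3 NP kidneys, and on slide 2 it was −0.02. The change between the slides was 1.19 log2 units with an SE of 0.15 and an unadjusted p of 6.53e-05 in the limma interaction of group and slide. That test was chosen after these values were seen, and it did not pass the adjustment over all probes (FDR 0.367), as 0 probes of the array did. The other Ddit4 probe covers the last codons and the stop codon, shown in capitals, at chr20:27253126-27253185:

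Ddit4 coding probe A_64_P059485: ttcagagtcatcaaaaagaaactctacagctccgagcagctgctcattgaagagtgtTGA

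It read 10.53, 10.73, 10.72, 10.55 and 10.57 in NP kidneys and 9.98, 10.18, 10.61 and 10.86 in MSC kidneys, with the same kidneys low. Its overall log2 fold change was −0.22 with an SE of 0.16 (limma FDR 0.631), made of −0.58 on slide 1 and 0.17 on slide 2, and the interaction had an unadjusted p of 0.00345 (FDR 1.00). It was −0.07 without MSC 1 (p 0.625), −0.14 without MSC 2 (p 0.455) and −0.36 without MSC 4 (p 0.0287, limma FDR 0.556). Both probes thus placed MSC 1 and MSC 2 lowest of the 9 arrays. With the slide as a block the brighter probe changed by −0.67 (limma FDR 0.293). What set the MSC kidneys of slide 1 apart was not tested.

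**Figure D3:**
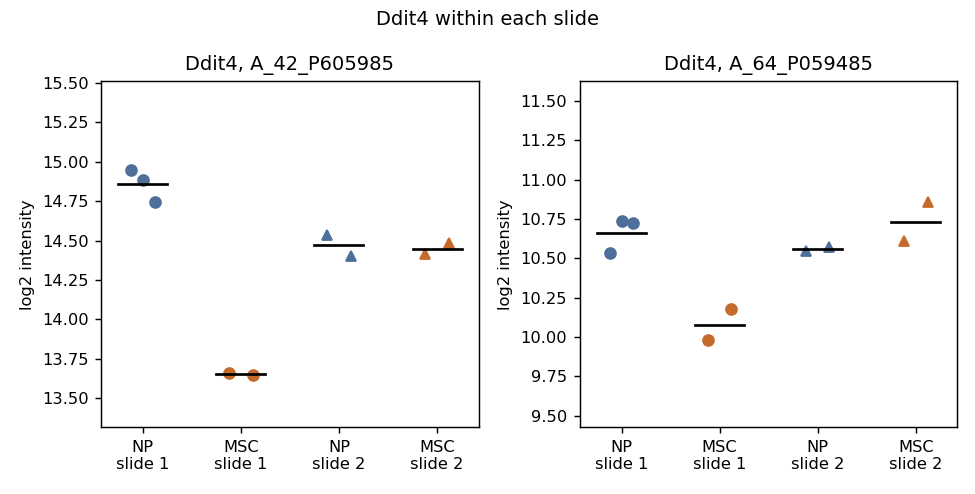
Log2 intensity of the 2 Ddit4 probes by group and slide (vertical axes spanning the same range), points being arrays and lines group means. On slide 1 both probes are lower in MSC than in NP kidneys, by 1.21 and 0.58, and on slide 2 the groups lie close together or the other way round.

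Counts over the 14 probes were set against the whole array. At an unadjusted p under 0.05, 0 of 14 were higher in MSC kidneys, where 6.52% of all tested probes were, and 1 of 14 was lower, where 5.14% were. In none of the 14 did every MSC array lie above or below every NP array, which 3.15% and 2.14% of all probes did. Of the 14 changes 8 were positive and 6 negative, with a median of 0.05, and the median over all probes was 0.00. The 5th to 95th percentile of all probes ran from −0.33 to 0.32, and Epas1, the brighter Ddit4 probe, Vegfa A_64_P099891 and Adm lay outside it.

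**Figure D4:**
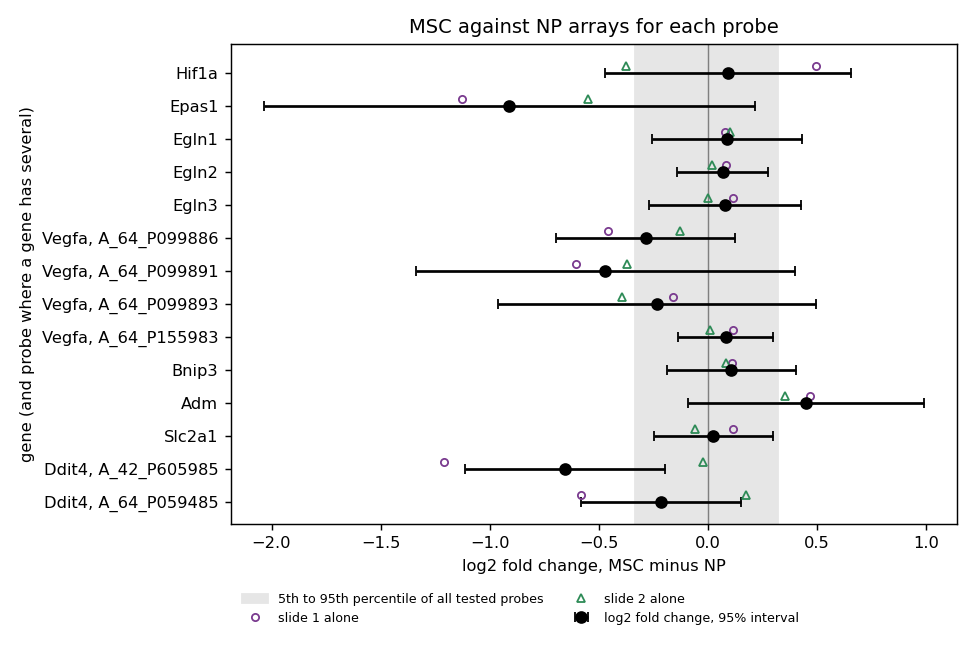
Log2 fold change, MSC minus NP, of each of the 14 probes (black points) with 95% intervals from limma, the differences within slide 1 (circles) and slide 2 (triangles), and the 5th to 95th percentile of all 15628 tested probes in grey. Only the interval of the brighter Ddit4 probe leaves out 0, and its slides lie apart at −1.21 and −0.02.

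Other genes of the pathway were taken from 4 lists, each gene by its most variable probe. Among 13766 genes tested this way, 6.65% were higher and 5.11% lower in MSC kidneys at an unadjusted p under 0.05, and 0 were called after adjustment. Of 83 listed genes 66 were tested, of which 7 passed that unadjusted p upwards and 2 downwards. Among genes that act on HIF itself, 0 of the 12 tested subunits and regulators passed it in either direction, with a median log2 fold change of −0.02. Those with the smallest p in each direction were Arnt2, a beta partner (0.38, limma p 0.103), Tceb1, elongin C of the von Hippel-Lindau complex (0.12), Ep300, the coactivator p300 (−0.26, p 0.0690), and Tceb2, elongin B (−0.11).

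More of the glycolytic targets had positive than negative values. Of 15 tested genes, 5 had an unadjusted p under 0.05 upwards and 1 downwards, and their median log2 fold change was 0.14 against −0.01 for all genes. That median was 0.0663 with median scaling and 0.211 on slide 1 alone. Eno1, the glycolytic enzyme enolase, read 13.10, 13.19, 13.40, 13.22 and 13.38 in NP kidneys and 13.76, 13.74, 13.59 and 13.82 in MSC kidneys. Its groups did not overlap, and it differed by 0.47 with an SE of 0.09 (limma p 4.1e-04, FDR 0.331). Aldoa, aldolase A, read 15.63, 15.35, 15.40, 15.68 and 15.86 against 16.11, 16.00, 16.12 and 16.29, again without overlap, a difference of 0.55 with an SE of 0.12 (limma FDR 0.331). Hk2 (0.43), Pgk1 (0.24) and Pkm2 (0.34), which encode hexokinase, phosphoglycerate kinase and pyruvate kinase, were the other 3 upwards. They also had all MSC above all NP arrays, as 3.15% of all tested probes did, a share not counted per gene. Hk2 was dim, with an NP mean of 8.64, below the filter level of every NP array (8.76 to 8.82). Its MSC arrays alone met the filter, so it entered the test through the group where it is high. Pkm2 ran from 12.58 to 12.73 in NP and from 12.75 to 13.50 in MSC kidneys. The lactate exporter Slc16a3 went the other way (−0.40, limma p 0.0477, FDR 0.422), and Pfkl, a phosphofructokinase, had −0.23 (p 0.0830). Of 28 tested markers in 5 tubule segment lists, 14 had an unadjusted p under 0.05 upwards, beside 6.65% of all genes. Downwards there were 0, and 0 were called. These lists were chosen with earlier results known and include Calb1 and Atp6v0d2, which the study selected from these arrays. The count is therefore not independent of these data. Trpv5, among the markers upwards, averaged 8.63 in NP kidneys, also below the filter level of every NP array. Scores for distal convoluted and connecting tubule ran from −0.50 to 0.09 in NP and from 0.17 to 0.37 in MSC kidneys. Those of the thick ascending limb nearly met, from −0.33 to −0.01 in NP and from 0.01 to 0.53 in MSC kidneys. Of its 5 markers 4 had positive log2 fold changes, led by Egf (1.37), and Cldn16 had −0.33. The proximal tubule, principal cell and intercalated cell scores overlapped between the groups. The part of tubule content in the glycolytic values was not tested. Slc2a1, which feeds the same pathway, had a change of 0.03.

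Vascular and secreted targets were mixed, with 1 of 13 tested genes past the unadjusted p upwards and 0 downwards. Angptl4, a secreted inhibitor of lipoprotein lipase, had a log2 fold change of 0.68, which did not pass (limma p 0.0514, FDR 0.428). MSC 2 was highest at 14.85, against 13.22 to 13.74 in the other MSC kidneys and up to 13.47 in NP kidneys. Nos3, the endothelial nitric oxide synthase, and Pgf, placental growth factor, had −0.18 and −0.20 and did not pass either. Pgf was 10.28 in MSC 2 and 11.08, 11.37 and 11.68 in the other MSC kidneys, beside an NP mean of 11.31. The gene of erythropoietin, Epo, was on the array and did not pass the filter on low values.

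Of 26 tested genes for cell survival, mitochondria, matrix and feedback, 1 had an unadjusted p under 0.05 in each direction. Insig2, which holds back sterol synthesis, differed by 0.23 (limma p 0.0322, FDR 0.394) with all MSC above all NP arrays, and Fam162a, a mitochondrial protein tied to cell death, by −0.23 (p 0.0273, FDR 0.390). Plod2, a collagen lysyl hydroxylase, and Ppfia4 had values of 0.24 and −0.42 and did not pass. The median of the list was 0.04, and Bnip3l, the paralogue of Bnip3, had −0.12.

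**Figure D5:**
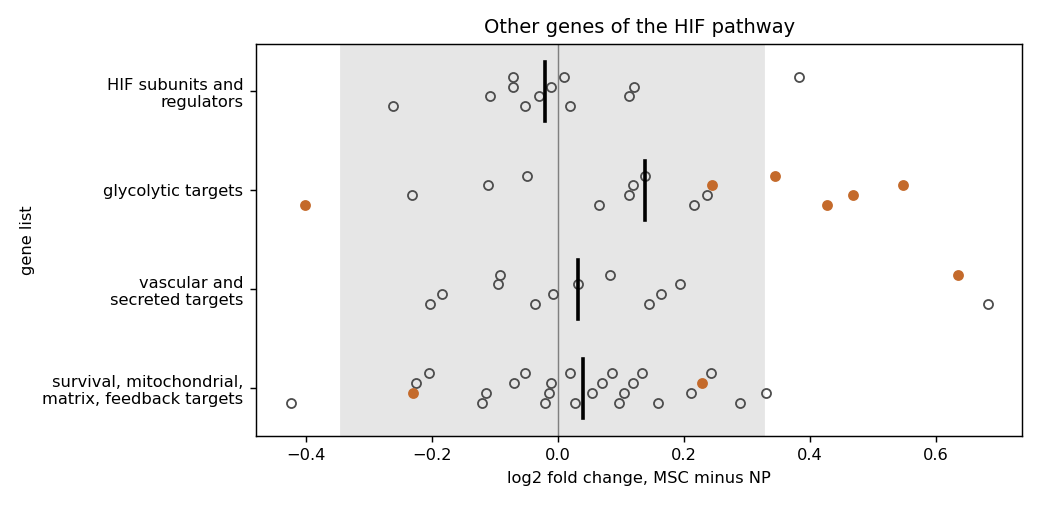
Log2 fold change, MSC minus NP, of the tested genes of 4 HIF pathway lists (one point per gene, filled where the unadjusted limma p is under 0.05, black line at the list median), with the 5th to 95th percentile of all 13766 genes in grey. Glycolytic targets, 11 of 15 of them positive, have a median of 0.14, inside the grey range, and the other lists have medians between −0.02 and 0.04.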

How the data were processed

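Microarrays of 5 NP and 4 MSC rat kidneys were analysed, grouped by their treatment labels. The authors scanned and quantified the arrays with Agilent Feature Extraction, and from its deposited columns the mean pixel intensity, without background subtraction, was used. The authors' deposited log2 table, normalized between arrays with limma, served as an alternative.

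Gene spots marked as outliers were left out. Log2 intensities were normalized by cyclic loess with control spots at weight 0, and replicate spots of a probe were averaged. Probes were kept where log2 intensity exceeded 1.1 times the 95th percentile of the negative controls on at least 4 arrays. This left 15628 of 30367 probes, and 2 were left out for want of a value on every array. limma 3.58.1 in R 4.3.3 was fitted over all kept probes, FDR being Benjamini-Hochberg over all of them, and a call needed an FDR below 0.05 and a fold change above 1.5. For the pathway and marker lists the probe with the largest variance stood for each gene, as in the study's methods (13766 genes). The exact permutation test was two-sided over all 126 ways to divide the arrays. The precision of these values is limited by the number of arrays. The study's methods describe removal of the left kidney of a rat, so each sample was taken as a separate animal. Scripts were tested on simulated data.

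The members and lists were chosen with earlier results of these data known. Genes named from each list were the 2 with the smallest p upwards and the 2 downwards, and for Hif1a and Epas1 the 5 genes with the highest Pearson's r over 9 arrays. A gene that this rule names is not reported here. Hk2, Pgk1, Pkm2, Bnip3l and Epo, and the interaction of group and slide, were chosen after the values were seen. Of 14 member probes, 13 had an accession in RefSeq, and 0 carried another symbol there. Probe positions are those of the array files (rn4), and promoters are RefSeq's (GRCr8). Alternatives were other normalizations, filters, background corrections, probe choices and weights, slide and replicate blocks, single slides, the deposited table, and each array left out.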

Additional observations from a re-analysis of the deposited data

Results flagged for a closer look

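In 3 of 28 sets of values (each probe in each group) an array stood far from the rest of its group by Dixon's test at 95%, where chance gives about 1.4. For Adm it was NP 3, at 12.13 against 13.14 to 13.35 in the other NP kidneys, with a gap of 0.821 of the group's range. For Bnip3 it was MSC 1, at 15.95 against 16.09 to 16.11 (0.888 of the range). For the heparin-binding Vegfa probe A_64_P155983 it was also MSC 1, at 9.30 against 9.45 to 9.48 (0.839 of the range). The gaps of MSC 1 are small in size, since the whole MSC range was 0.16 for Bnip3 and 0.18 for that Vegfa probe.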

How the results depend on the processing

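Over 24 alternatives, 469 of 496 recomputed values held. A probe's value held if it kept its direction and its side of the threshold, a count if it stayed within 1.5 times, and a list's median if it moved by less than the spread between arrays, even across 0. Under each of the 24 alternatives, 0 member probes were called. Member probes with an unadjusted p under 0.05 numbered 1 in the reported analysis, 3 with median scaling, 3 with array weights, 2 on slide 1 alone, 2 on slide 2 alone, and 1 to 4 when an array was left out. Without NP 1 there were 4 (both shared Vegfa probes, Epas1 and Ddit4), and without MSC 4 there were 2, both of Ddit4. Probes called over the whole array were 4 on slide 2 alone and 2 with array weights. The log2 fold change of the brighter Ddit4 probe ran from −1.21 to −0.02, with an FDR of 0.187 to 0.963, its extremes being the slides taken alone. The coding Ddit4 probe was 0.17 on slide 2 alone. Hif1a was −0.38 on slide 2 alone and −0.10 to 0.28 when an array was left out. Slc2a1 was −0.0285 with median scaling, −0.0591 on slide 2 alone and −0.0347 to 0.149 when an array was left out. Egln3 was −0.000176 on slide 2 alone, −0.00753 with array weights and −0.00656 to 0.167 when an array was left out, Egln2 was −0.0211 with array weights, and Egln1 was −0.0277 to 0.200 when an array was left out. The median of the glycolytic list was 0.0663 with median scaling and 0.211 on slide 1 alone. That of the survival, mitochondrial, matrix and feedback list was 0.128 on slide 1 alone and −0.0530 on slide 2 alone, and that of the vascular list 0.159 on slide 2 alone, −0.0237 with median scaling, −0.0177 on slide 1 alone and −0.00605 without MSC 1. The median of the HIF subunits and regulators, −0.02 as reported, ran from −0.0483 to 0.0414 and was positive under 5 alternatives. The cause of these shifts was not tested, beyond the single slides holding fewer arrays. Samples of the same number did not deviate together in a regular way, with r of 0.20, 0.32, −0.35 and 0.05 for numbers 1 to 4. Pairs of different numbers ran from −0.34 to 0.40. These values gave no sign that the numbers pair the kidneys, and so few pairs cannot exclude it. With the replicate number as a block, which drops NP 5, the brighter Ddit4 probe changed by −0.73 (limma FDR 0.397) and 1 member probe was below the unadjusted p, as in the reported analysis. All member spots were well above background by the scanner software, and signal over background limits most the dim Vegfa probe A_64_P155983 and Hif1a, whose raw intensities went down to 483 and 522.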
